A study of Rattus norvegicus with 99 samples.

Results

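The compensated right ventricle (RV) after pulmonary artery banding is described here from 12 of the 99 libraries of the series. They are the RV libraries of 6 animals with pulmonary artery banding (PAB-H) and 6 sham-operated animals (Sham-H), taken at 11 weeks of age and 7 weeks after surgery. Both groups had 7 animals. The members were chosen by their sample titles with PAB-H animal 2 and Sham-H animal 1 left out, because an earlier look at these data had given both animals a reversed difference in expression between RV and left ventricle (LV). The rats were males, bred as the first (F1) cross of Wistar Kyoto females with Lewis males, and polyadenylated RNA was sequenced from pieces of whole heart tissue. In the banded animals a clip that did not narrow the vessel when placed became constricting as the young rats grew, and the shams were operated without banding. Further groups used here are AOB-H, with the clip around the aorta and the same age, PAB-F, which reached right heart failure at 27 weeks of age and 21 weeks after surgery, and Sham-RF, the shams of that age. AOB-H had 7 animals, PAB-F had 3 and Sham-RF had 2. Each animal gave 1 RV library, so differences are between animals. In bulk tissue, fewer cells of a type and less RNA per cell cannot be told apart.

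The pulmonary artery carries blood from the RV to the lungs, and a narrowed artery raises the pressure against which the thin RV wall must pump. Ventricular muscle answers such a load with growth of its myocytes, and the answer is classically accompanied by genes of the fetal heart and of stretched muscle, among them the natriuretic peptides Nppa and Nppb, skeletal actin (Acta1), slow myosin (Myh7) and the ankyrin repeat proteins of the titin filament (Ankrd1, Ankrd2 and Ankrd23). In the compensated stage the enlarged ventricle still keeps up its output. Whether and in which genes the loaded RV differed at that stage is the question of the comparison.

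The RV minus LV difference of every animal was rebuilt from the 50 genes that separated both ventricles best in the other animals, and is given as a ratio to the median of the other animals, so that 1 is a usual difference and a negative value a reversed one. These ratios chose the members and carry no test. Of the 33 animals, 3 had a negative ratio. Sham-H animal 1, which was left out, had a ratio of -0.986 and AOB-H animal 12 had -1.32. The reversed PAB-H animal was animal 22 (PAB-H replicate 2) with -1.06, which the rule keeps, while PAB-H animal 2, which the rule leaves out, had an unremarkable ratio of 0.695. The data therefore went against the reason given for leaving out animal 2. The lowest positive ratios among the 12 members were 0.383 in PAB-H animal 19 and 0.418 in Sham-H animal 21. The members were used as the rule states, and values with animal 2 in place of animal 22 are given beside the results that this exchange moves.

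**Figure D1:**
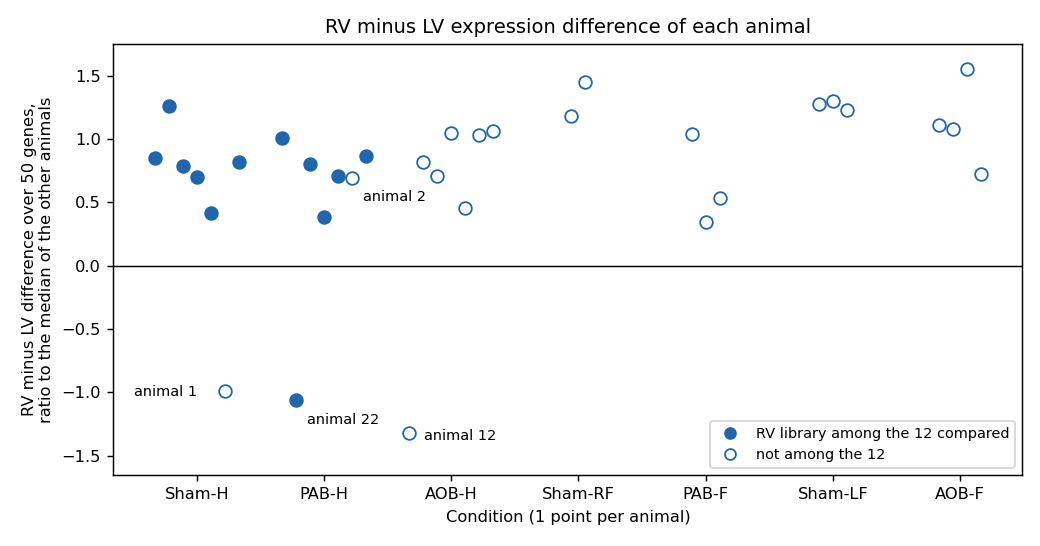
RV minus LV expression difference of each of the 33 animals (y axis, ratio to the median of the other animals, 1 point per animal) by condition (x axis). Filled points are the 12 animals compared. Animals 1, 12 and 22 lie below 0, and animal 2 lies at 0.695 among the positive values.

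Total counts of the 12 libraries ranged from 15.4 to 23.8 M (mega) with a median of 18.6 M. Expression levels are in CPM, which divide each count by the TMM-scaled size of its library, and differences are log2 fold changes with their standard error, PAB-H minus Sham-H unless another pair is named. The first principal component held 59.3% of the variance, and on this component library series, the 3 runs of library numbers in the labels, took a share of 0.901 and banding a share of 0.0361. Each series held equal numbers of both groups, 2, 3 and 1. A second fit had the series as a term. Atrial muscle markers were high in 1 library of each group. Myl7, the atrial myosin light chain, had 1102.8 CPM in PAB-H replicate 1 and 577.6 CPM in Sham-H replicate 7, against 0.999 to 63.8 CPM in the other 10, and Bmp10, which atrial myocytes secrete, had 6.77 and 19.6 CPM there and 0 in the other 10. Summed over the atrial list, PAB-H ranged from 403.9 to 5840.2 CPM (median 981.8) and Sham-H from 355.0 to 3234.5 CPM (median 540.8). The list also holds Nppa.

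No gene passed an adjusted p of 0.05 in the loaded RV. Of 11133 genes tested with edgeR's quasi-likelihood test, 302 (2.71%) had an unadjusted p under 0.05, of which 129 had a higher value in PAB-H (1.16%) and 173 a lower one (1.55%), fewer than the 557 that a 5% threshold gives by itself. The lowest adjusted p was 0.981, in edgeR's test with Benjamini-Hochberg adjustment. DESeq2 also gave 0 genes at an adjusted p under 0.05, with 338 at an unadjusted p under 0.05. With the library series in the model, 0 genes passed the adjusted threshold and 1075 (9.66%) had an unadjusted p under 0.05, 601 higher (5.4%) and 474 lower (4.26%), and the lowest adjusted p of edgeR was 0.506. DESeq2 gave 0 and 1088 there. With the replicate number as a block in place of the series, edgeR gave 0 and 1076 and DESeq2 gave 2 and 931. The values below are therefore descriptions of these libraries, and an unadjusted p is given only to order genes.

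The 6 animals of PAB-H were unlike each other in the markers of hypertrophy. All 20 such genes in the table were tested, and 18 had a higher value in PAB-H with a median log2 fold change of 0.49, against a median of -0.004 over all genes, of which 48.5% were higher. An unadjusted p under 0.05 was found for 9 of the 20 in the higher direction, beside 1.16% of all genes, and for 1, Myl9, a regulatory light chain of smooth muscle myosin, in the lower direction (-0.30 ± 0.13). The list was chosen with earlier results of these data known, and its counts are no independent evidence of direction. Not one of the 20 genes was higher in all 6 PAB-H animals than in every sham. The spread lay between animals. PAB-H replicate 5 exceeded all shams in 16 of the 20 genes, and replicates 2 and 4 in 10 each. Replicates 7, 3 and 1 did so in 6, 4 and 3 genes. Over all genes tested, the same replicates exceeded all shams in 12.9% (replicate 5), 12.3% (replicate 2), 21.2% (replicate 4), 12% (replicate 7), 16.5% (replicate 3) and 11.3% (replicate 1).

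Ankrd23, Tceal7 and Acta1 had their highest values in the same 3 animals, replicates 5, 4 and 2. Replicate 2 is animal 22, whose RV minus LV ratio was reversed (-1.06), so its ventricle label is uncertain. Ankrd23, a muscle ankyrin repeat protein bound to titin, ranged from 20.3 to 215.3 CPM in PAB-H (median 44.5) and from 17.2 to 35.6 CPM in Sham-H (median 18.6). Its highest values were those of replicates 5, 4 and 2 (215.3, 117.2 and 62.9 CPM), while the other 3 animals (26.1, 22.2 and 20.3 CPM) lay within the range of the shams. The log2 fold change was 1.85 ± 0.55, and 1.61 ± 0.55 with the series in the model. Tceal7, named for its likeness to a transcription elongation factor, followed the same order at its top, with 54.0, 30.0 and 15.2 CPM in replicates 5, 4 and 2. Its other 3 PAB-H values fell between 5.22 and 9.70 CPM and the shams between 3.12 and 14.7 CPM, for a log2 fold change of 1.69 ± 0.59. Acta1, the actin of skeletal muscle and of the fetal heart, ranged from 335.2 to 4465.4 CPM in PAB-H (median 1237.1) and from 424.6 to 1430.5 CPM in Sham-H (median 659.0). PAB-H replicates 5, 4 and 2 again were above all shams and replicate 3 below all of them, at a log2 fold change of 1.20 ± 0.51. With the replicate number as a block it was 0.85 at an unadjusted p of 0.0629. Acta1 has close relatives among the actins, and how reads shared between them were counted is not given in the sources used here.

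Mybpc2, the fast skeletal form of myosin-binding protein C, ranged from 2.00 to 10.7 CPM in PAB-H (median 4.26) and from 1.89 to 3.21 CPM in Sham-H (median 2.49), with 4 of 6 PAB-H animals above all shams. Penk, the precursor of the enkephalins, ranged from 33.6 to 160.8 CPM in PAB-H (median 85.7) and from 28.8 to 92.4 CPM in Sham-H (median 36.7). Rcan1, a regulator of the phosphatase calcineurin that calcineurin itself induces, ranged from 177.8 to 430.3 CPM in PAB-H (median 361.1) and from 186.1 to 247.4 CPM in Sham-H (median 223.2). In Rcan1, replicates 2, 4, 5 and 7 were above all shams and replicate 3 was below all of them. The log2 fold changes were 1.03 ± 0.35 for Mybpc2, 0.95 ± 0.41 for Penk and 0.54 ± 0.21 for Rcan1. Of the list's remaining members with an unadjusted p under 0.05, which were chosen for the text after their values were seen, Xirp2, an actin-binding protein of the intercalated disc, differed by 0.64 ± 0.23, Flnc, the muscle filamin, by 0.31 ± 0.14 and Fhl1, a LIM-domain protein of the sarcomere, by 0.30 ± 0.11. Fhl1 was above all shams in 5 PAB-H animals.

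**Figure D2:**
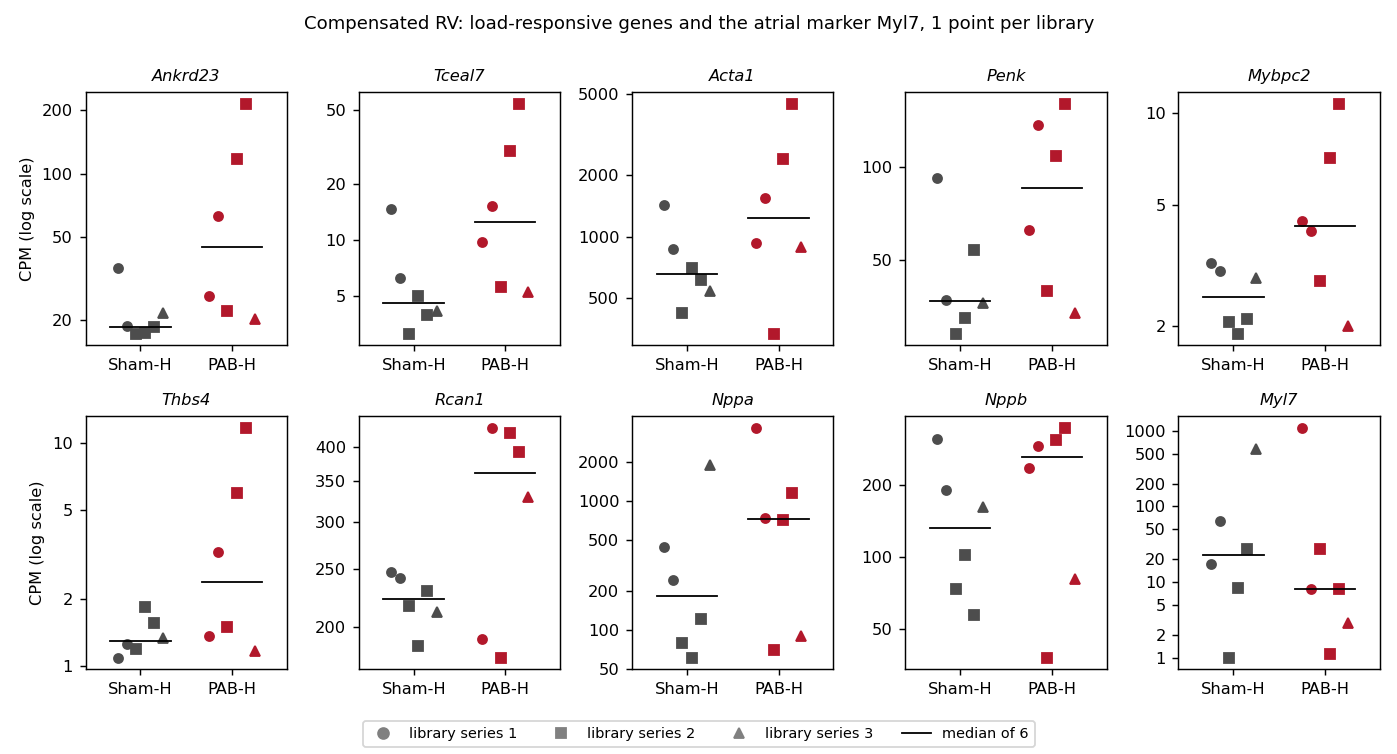
Level of load-responsive genes and of the atrial marker Myl7 in the 12 RV libraries (y axis, CPM on a log scale, 1 point per library) in Sham-H and PAB-H, with the symbol giving the library series and the bar the median of 6. Replicates 2, 4 and 5 carry the high PAB-H values of Ankrd23 (62.9, 117.2 and 215.3 CPM), and the remaining 3 lie among the shams. Replicate 2 is animal 22, whose RV minus LV ratio was reversed.

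The classical load markers were less separated. Nppa, which encodes the atrial natriuretic peptide, ranged from 70.3 to 3715.9 CPM in PAB-H (median 733.3) and from 61.3 to 1899.9 CPM in Sham-H (median 182.9), and the highest value in each group was that of its library with atrial markers. The log2 fold change of Nppa was 1.19 ± 1.00, became 2.22 ± 0.95 with the series in the model, and was 1.55 without both atrial-marker libraries. It was 0.22 without PAB-H replicate 1 alone and 2.51 without Sham-H replicate 7 alone. The part of atrial tissue in these values was not tested. Nppb, which encodes the B-type natriuretic peptide measured in the clinic, ranged from 37.9 to 346.3 CPM in PAB-H (median 262.2) and from 57.4 to 312.0 CPM in Sham-H (median 131.8), at 0.53 ± 0.52. Myh7, slow myosin heavy chain, differed by 0.45 ± 0.34, and Ankrd1, a nuclear and sarcomeric stress protein, by 0.31 ± 0.27, and in each 1 PAB-H animal was above all shams. Each of these 4 differences had an unadjusted p above 0.05 in the model without series.

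The marker counts moved with the choice of libraries. With animal 22 exchanged for animal 2, 18 of the 20 genes were higher with a median of 0.38 and 5 had an unadjusted p under 0.05. Without animal 22 alone these were 17 genes, 0.43 and 7. The shares over all genes in both fits are not set beside the 5 and the 7, which are therefore not read as a result about the markers. Ankrd23 was then 1.72 (exchanged) and 1.90 (left out), Acta1 1.11 and 1.24, and Penk 0.68 and 0.79. With the exchange Rcan1 was 0.36, Fhl1 0.26 and Myl9 -0.20, and these 3, Acta1 and Penk then had an unadjusted p above 0.05. Animal 2 itself had 21.9 CPM of Ankrd23 and 886.2 CPM of Acta1 in its RV. Without both atrial-marker libraries, 18 of 20 were higher with a median of 0.55. Within library series 1, which has 2 animals a group and includes animal 22, 14 of 20 were higher with a median of 0.07, and within series 2, with 3 animals a group, 18 of 20 with a median of 0.87. Ankrd23 was 0.70 within series 1 and 2.74 within series 2, Acta1 0.09 and 2.04, and Tceal7 0.24 and 2.88. Without PAB-H replicate 5 alone, Ankrd23 was 1.21, Tceal7 1.08, Acta1 0.67 and Mybpc2 0.68.

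Promoter sequences of these genes were looked at because several of the markers had their high values in the same animals. Of the 20 markers, 16 had a promoter of 250 bases before the gene's start in RefSeq (build GRCr8), and the files themselves were made on Rnor6.0. The M-CAT element (CATTCC on either strand), the binding site of TEAD factors in muscle genes, was present in 6 of the 16 (37.5%), against 11.8% of 27457 promoters and 9.89% of the 8493 promoters of genes tested. A TATA box (TATAAA on the promoter's own strand) was in 4 of 16 (25%), against 8.38% and 4.17%, and the CArG box, the site of serum response factor, in 2 of 16 (12.5%), against 1.5% and 1.14%. These are matches of letters, not shown sites. The promoters of the 4 markers with the largest fold changes at an unadjusted p under 0.05 are printed 5′ to 3′ on the gene's strand with matched elements in capitals. Ankrd23 lies on the minus strand of chr9:46274511-46274760, Tceal7 on the plus strand of chrX:104019834-104020083, Acta1 on the minus strand of chr19:68784195-68784444 and Mybpc2 on the minus strand of chr1:104154102-104154351. The element starts 102 bases before the start of Ankrd23, 234 before that of Tceal7, 67 before that of Acta1 and 75 before that of Mybpc2, where it lies on the opposite strand. Acta1 has all 3 elements, in the order CArG box, M-CAT and TATA box.
Ankrd23: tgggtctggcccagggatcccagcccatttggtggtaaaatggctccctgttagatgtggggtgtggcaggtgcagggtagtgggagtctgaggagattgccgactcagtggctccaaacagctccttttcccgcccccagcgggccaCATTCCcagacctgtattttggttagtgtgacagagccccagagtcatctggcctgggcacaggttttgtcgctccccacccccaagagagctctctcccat
Tceal7: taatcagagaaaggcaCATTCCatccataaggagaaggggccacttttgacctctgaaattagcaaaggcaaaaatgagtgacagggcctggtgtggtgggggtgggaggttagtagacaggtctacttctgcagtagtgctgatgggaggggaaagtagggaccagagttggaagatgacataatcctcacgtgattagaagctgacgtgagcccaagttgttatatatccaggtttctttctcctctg
Acta1: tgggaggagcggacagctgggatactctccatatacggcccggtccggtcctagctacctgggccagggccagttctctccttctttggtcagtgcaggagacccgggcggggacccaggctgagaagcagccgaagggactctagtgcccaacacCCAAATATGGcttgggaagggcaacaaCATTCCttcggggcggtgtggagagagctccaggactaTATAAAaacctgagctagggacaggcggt
Mybpc2: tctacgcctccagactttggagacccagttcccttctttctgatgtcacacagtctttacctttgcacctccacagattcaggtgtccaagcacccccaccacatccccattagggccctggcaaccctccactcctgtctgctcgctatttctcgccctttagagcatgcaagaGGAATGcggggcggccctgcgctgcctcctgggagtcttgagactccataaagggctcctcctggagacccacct

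Of 26 matricellular proteins, crosslinkers and matrix glycoproteins, 12 had a higher value in PAB-H and the median was -0.03. Thbs4, a thrombospondin of stressed muscle and tendon, ranged from 1.17 to 11.7 CPM in PAB-H (median 2.37) and from 1.09 to 1.84 CPM in Sham-H (median 1.30), at 1.58 ± 0.53, and 0.92 without PAB-H replicate 5. Spp1, the matrix cytokine osteopontin, had 46.3 and 17.7 CPM in PAB-H replicates 5 and 4, while the other 4 PAB-H animals lay between 0.850 and 1.22 CPM and the shams between 1.10 and 3.00 CPM. Among the animals compared, the log2 fold change of Spp1 of 2.53 ± 0.99 thus came from 2. It was 1.13 without replicate 5, and 1.14 at an unadjusted p of 0.218 with the replicate number as a block. Animal 2, the left-out PAB-H animal, had 10.1 CPM of Spp1, above the shams compared, when scaled with all 14 libraries. With animal 22 exchanged for animal 2 the log2 fold change of Spp1 was 2.71. Postn, periostin of activated fibroblasts, ranged from 7.22 to 41.3 CPM in PAB-H (median 14.2) and from 7.39 to 14.5 CPM in Sham-H (median 11.0), at 0.73 ± 0.40, and 0.27 without PAB-H replicate 5. Of 12 collagens, 10 had a lower value with a median of -0.16. Col1a1 and Col3a1, the fibrillar collagens of scar, differed by -0.18 ± 0.13 and -0.22 ± 0.13, and Col8a1, a short-chain collagen, by 0.35 ± 0.26. The collagens with an unadjusted p under 0.05 were Col18a1 of basement membranes (-0.30 ± 0.09, with 33.0 to 42.3 CPM in PAB-H and 39.9 to 55.0 CPM in Sham-H) and Col16a1 (-0.26 ± 0.10).

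Full separation of both groups was rare. In 3 of 11133 genes (0.0269%) all 6 PAB-H animals were above all 6 shams, and in 3 (0.0269%) all were below. At least 3 PAB-H animals were above all shams in 1011 genes (9.08%) and below in 1183 (10.6%). Of the 20 markers, 11 had at least 3 PAB-H animals above all shams, which is read against that 9.08%. The lowest unadjusted p was that of Lamc3, the laminin gamma 3 chain of basement membranes, which ranged from 1.95 to 2.50 CPM in PAB-H (median 2.13) and from 2.92 to 3.98 CPM in Sham-H (median 3.69). The groups of Lamc3 did not overlap, and the log2 fold change was -0.69 ± 0.13 at an unadjusted p of 0.000118 and an adjusted p of 0.981 in edgeR's test. Prr5l, a partner of mTOR complex 2, was also separate, with 1.13 to 1.76 CPM in PAB-H and 2.01 to 2.86 CPM in Sham-H (-0.64 ± 0.16). The third gene below all shams was Ankrd29 (-0.55 ± 0.20), whose highest PAB-H and lowest Sham-H values were 1.54 and 1.55 CPM. Above all shams were Fignl1, an ATPase of DNA repair, with 0.844 to 1.19 CPM in PAB-H and 0.437 to 0.779 CPM in Sham-H (0.69 ± 0.18), Actl6a, a subunit of chromatin remodelling complexes (0.16 ± 0.06), and Klhl22, a ubiquitin ligase adaptor (0.10 ± 0.05). In animal 2, the left-out PAB-H animal, Prr5l had 2.66 CPM, Fignl1 0.554 CPM and Klhl22 44.0 CPM, so that with it in place of animal 22 the groups of these 3 genes overlapped, and Prr5l was -0.44 and Fignl1 0.56. Sham-H animal 1, left out for its reversed ratio, had 2.12 CPM of Lamc3, 0.89 CPM of Fignl1 and 1.23 CPM of Ankrd29. These values lay within the PAB-H ranges, so the separation of these genes depends on leaving it out. Its Prr5l (2.76 CPM), Actl6a (27.9 CPM) and Klhl22 (41.6 CPM) lay outside the PAB-H ranges. Levels of both left-out animals were scaled with all 14 libraries. Ankrd29, Actl6a and Klhl22 were named after their values were seen. Lamc3 was -0.77 within series 1, -0.65 within series 2, -0.65 with animal 22 exchanged and -0.58 with both atrial-marker libraries also left out. It was picked for its low p in these same libraries, which these settings largely share, so these values are no independent support.

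Other genes with a low unadjusted p and a higher value served varied functions. Maoa, the monoamine oxidase that degrades noradrenaline and serotonin, ranged from 120.6 to 569.4 CPM in PAB-H (median 208.0) and from 102.4 to 173.4 CPM in Sham-H (median 119.2), at 1.22 ± 0.37. Its highest values were those of replicates 5, 4 and 2, as in Ankrd23, and replicate 2 is animal 22 with the reversed RV minus LV ratio. Steap2, a metalloreductase, ranged from 12.4 to 21.6 CPM in PAB-H (median 14.2) and from 8.95 to 12.7 CPM in Sham-H (median 10.1), at 0.60 ± 0.16. B3galt2, a galactosyltransferase, differed by 0.72 ± 0.22 and Thbd, the endothelial anticoagulant receptor thrombomodulin, by 0.39 ± 0.11. Steap2 was above all shams in 5 PAB-H animals, and so were Bcl11a, a zinc-finger transcription factor (0.48 ± 0.15), and Rab3ip, an exchange factor of a Rab GTPase (0.20 ± 0.07). The library series widened the error of some genes. Rims1, a scaffold of the exocytosis machinery, differed by 0.98 ± 0.34 and by 0.95 ± 0.20 with the series in the model. Slc6a6, the taurine transporter, went from 0.65 ± 0.49 to 0.65 ± 0.17 and Ces1c, a carboxylesterase, from 0.44 ± 0.19 to 0.46 ± 0.10. Sorbs2, an adaptor of the Z-disc, went from 0.36 ± 0.13 to 0.33 ± 0.09. With animal 22 exchanged for animal 2, Ces1c was 0.31 in the model without series, at an unadjusted p above 0.05.

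The list of Schwann cells, the glia of cardiac nerves, and neurons had 7 members tested, 6 of them lower, with a median of -0.34, and 3 had an unadjusted p under 0.05 in the lower direction, beside 1.55% of all genes. One of these was S100b, the glial calcium-binding protein, which ranged from 2.89 to 5.53 CPM in PAB-H (median 3.21) and from 3.38 to 7.05 CPM in Sham-H (median 5.33), at -0.61 ± 0.21. The groups of S100b overlapped. Summed over the list, PAB-H ranged from 23.6 to 36.3 CPM (median 28.6) and Sham-H from 30.9 to 48.7 CPM (median 43.1), and 4 of 6 PAB-H sums were below all shams. Of neuronal genes, Th, Npy and Snap25 stayed at or below 0.344 CPM in all 12 libraries, and Dbh, which sympathetic neurons use to make noradrenaline, had 1.97 CPM in PAB-H and 1.67 CPM in Sham-H on average.

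Further genes were taken for their low unadjusted p in the lower direction, so that their direction is no result. Gfra3, the receptor of the neurotrophic factor artemin, ranged from 5.07 to 9.81 CPM in PAB-H (median 7.87) and from 9.62 to 19.4 CPM in Sham-H (median 10.9), at -0.74 ± 0.23. Cadm4, an adhesion molecule, differed by -0.77 ± 0.21 and Plekhb1, a pleckstrin-homology domain protein, by -0.74 ± 0.21. With animal 22 exchanged for animal 2, the list kept 6 of 7 lower with a median of -0.28, but 1 member in place of 3 had an unadjusted p under 0.05. The share over all genes in that fit is not set beside this count, and nothing is read from its fall. Gfra3 was then -0.63, Cadm4 -0.58 and Plekhb1 -0.53. Animal 2 had 12.7 CPM of Gfra3, within the range of the shams. Within series 1 and 2, Gfra3 was -0.64 and -1.07. In the LV of the same animals all 6 members tested were lower as well, with a median of -0.45. In the failing RV described below, PAB-F against Sham-RF, 3 of 8 members tested were higher and the median was -0.47, and 3 had an unadjusted p under 0.05 in the higher direction, beside 4.33% of all genes, and 0 in the lower one. For 2 members the difference between stages had an unadjusted p under 0.05, beside 2.1% of all genes.

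**Figure D3:**
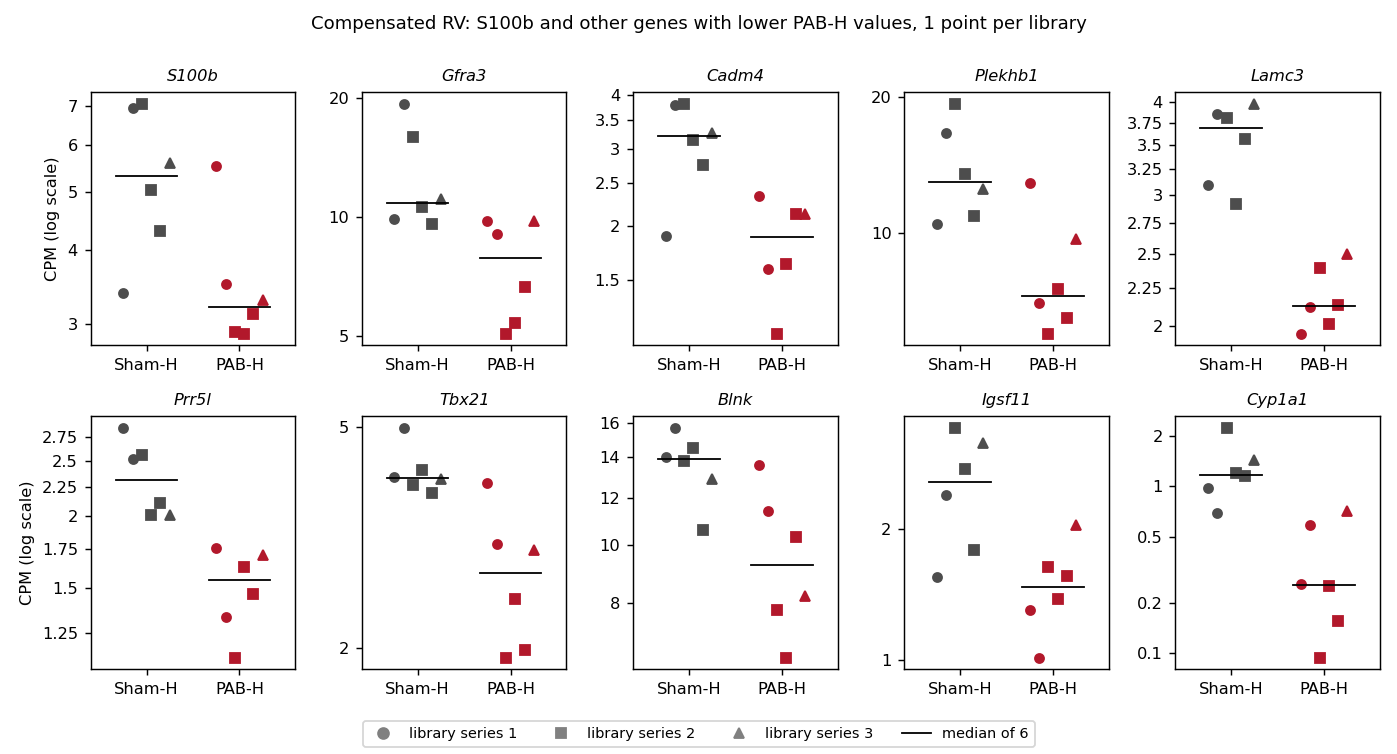
Level of S100b and other genes with lower PAB-H values in the 12 RV libraries (y axis, CPM on a log scale, 1 point per library) in Sham-H and PAB-H, with the symbol giving the library series and the bar the median of 6. Lamc3 and Prr5l do not overlap between groups, and S100b and Gfra3 do.

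Several further genes had lower values in PAB-H. Tbx21, a T-box factor of lymphocytes, ranged from 1.92 to 3.97 CPM in PAB-H (median 2.73) and from 3.80 to 4.99 CPM in Sham-H (median 4.05), with 5 of 6 PAB-H animals below all shams, at -0.61 ± 0.18. Blnk, an adaptor of the B-cell receptor, differed by -0.50 ± 0.17 and Igsf11, a cell adhesion protein, by -0.74 ± 0.23. With animal 22 exchanged for animal 2 Blnk was -0.40 and Igsf11 -0.50, each at an unadjusted p above 0.05. The lymphocyte marker list, which holds neither Tbx21 nor Blnk, was not lower. Of its 6 members tested, 3 were higher and 3 lower, with a median of 0.10. Its summed level ranged from 18.0 to 30.8 CPM in PAB-H and from 17.2 to 28.1 CPM in Sham-H. Cyp1a1, a target of the aryl hydrocarbon receptor, ranged from 0.0938 to 0.709 CPM in PAB-H (median 0.256) and from 0.694 to 2.25 CPM in Sham-H (median 1.17), at -1.85 ± 0.42. Epyc, a small proteoglycan, had a median of 0.313 CPM in PAB-H and 1.71 CPM in Sham-H, at -2.14 ± 0.57. Both genes were at or below 1 CPM in PAB-H. The smooth muscle markers with an unadjusted p under 0.05 were Tagln (-0.73 ± 0.25), Cnn1 (-1.03 ± 0.47) and Acta2 (-0.48 ± 0.22). In each of them Sham-H replicate 3 stood above the other shams, and without it they were -0.41, -0.45 and -0.22. With animal 22 exchanged they were -0.52, -0.76 and -0.38 at unadjusted p above 0.05, and with the replicate number as a block Acta2 was -0.42 at an unadjusted p of 0.0547.

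Other lists covered protein synthesis, metabolism and excitability. All 33 cytosolic ribosomal protein genes tested had a lower value, with a median of -0.16 and 0 at an unadjusted p under 0.05. With the series in the model these were 14 of 33, beside 4.26% of all genes. With animal 22 also exchanged they were 1 of 33, in a fit where fewer of all genes had such a p as well. Their summed level overlapped between groups, from 10794.3 to 18251.8 CPM in PAB-H and from 12096.8 to 19083.2 CPM in Sham-H, and such genes share library and depth and do not vary on their own. Of 34 nuclear-encoded subunits of the respiratory chain, 28 were lower with a median of -0.09. Fatty acid uptake and oxidation (18 of 30 higher, median 0.02), glycolysis (16 of 26, 0.05), calcium cycling (10 of 15, 0.09) and the sarcomere (9 of 19, -0.01) showed no common shift. Hk1, a hexokinase of most tissues, was the glycolytic gene with an unadjusted p under 0.05 (0.22 ± 0.08). Dnajb5, a co-chaperone, was the one among 22 heat shock genes (0.28 ± 0.10), of which 18 were higher with a median of 0.10. Among channels these were Hcn2, a pacemaker channel (0.53 ± 0.23), and Kcna5, a repolarising potassium channel (-0.51 ± 0.22). Over all genes, 1.16% had such a p in the higher direction and 1.55% in the lower one. Of 18 angiogenic and hypoxia genes, 9 were higher and 9 lower, with a median of 0. The 2 with an unadjusted p under 0.05 were Bnip3 (0.24 ± 0.10) and Egln3 (0.27 ± 0.12), both targets of hypoxia-inducible factor. With animal 22 exchanged for animal 2 all 6 of these genes had an unadjusted p above 0.05, with Hk1 at 0.17, Dnajb5 at 0.17, Hcn2 at 0.38, Kcna5 at -0.24, Bnip3 at 0.16 and Egln3 at 0.18.

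Markers of other cell types bear on these values. Mesothelial and epicardial markers were lower in 7 of 8 genes with a median of -0.51, none at an unadjusted p under 0.05, and their summed level ranged from 42.5 to 119.6 CPM in PAB-H and from 45.2 to 179.7 CPM in Sham-H. In the LV of the same animals 6 of 8 were higher, with a median of 0.34. Fibroblast markers were lower in 10 of 12 genes (median -0.18), beside the 10 of 12 lower collagens, with sums from 4867.8 to 8088.3 CPM and from 5738.9 to 7658.7 CPM. Macrophage (3 of 13 higher, median -0.06) and endothelial markers (6 of 14, -0.03) lay near 0. Cell cycle genes were higher in 20 of 24, with a median of 0.23 and 0 at an unadjusted p under 0.05. Mki67, the common marker of cycling cells, differed by 0.46 ± 0.26. The part of cell composition in the matrix and cell cycle values was not tested.

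**Figure D4:**
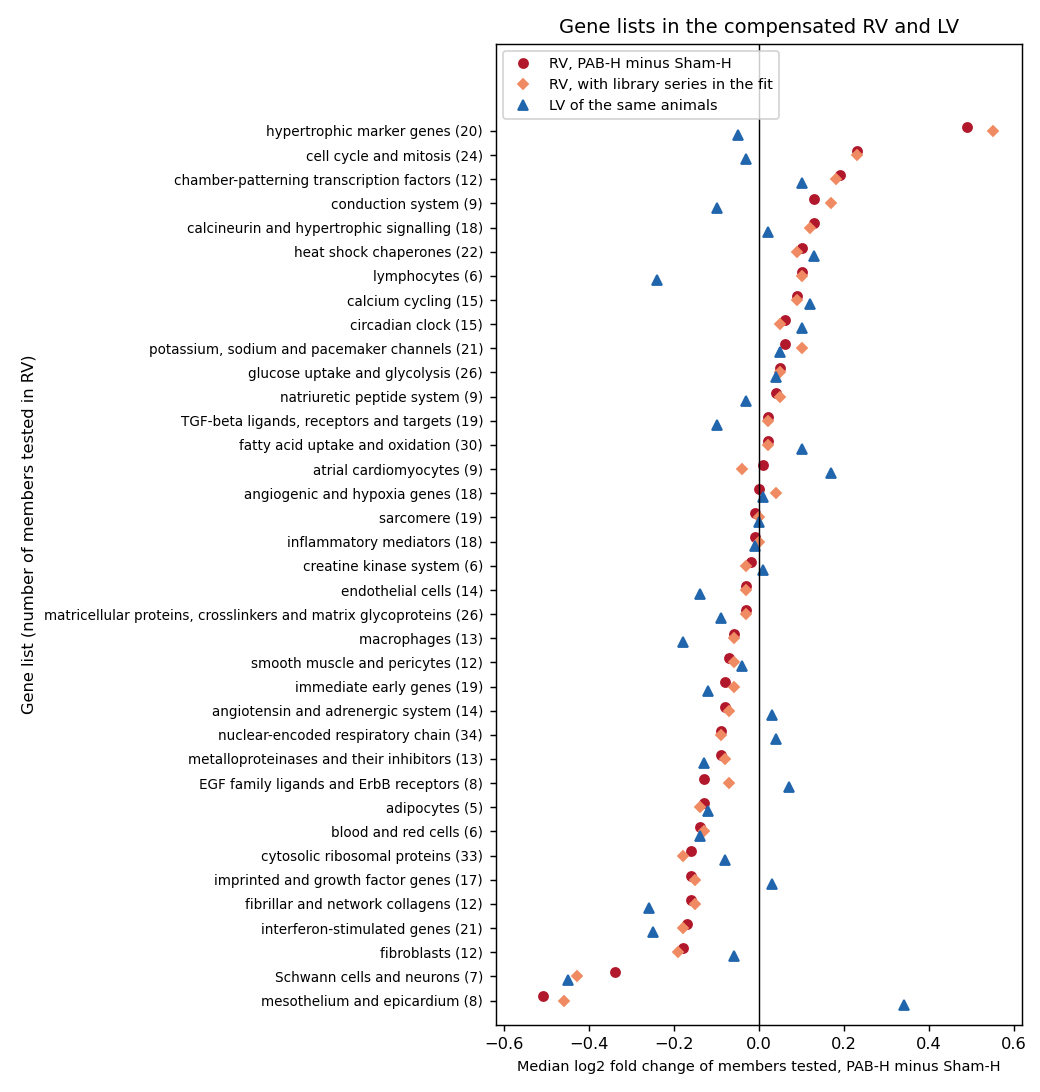
Median log2 fold change (x axis, PAB-H minus Sham-H) over the members tested of each gene list (y axis, number of members in brackets) in the RV, in the RV with the library series in the model and in the LV of the same animals. The hypertrophic markers lie at 0.49 in the RV and -0.05 in the LV, and mesothelial markers at -0.51 and 0.34.

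The LV of the same 12 animals, which the clip around the pulmonary artery does not load directly, showed no gene at an adjusted p under 0.05 among 11118, in edgeR's test, and 316 (2.84%) at an unadjusted p under 0.05. Of the 20 markers, 7 were higher there, with a median of -0.05 and 0 at an unadjusted p under 0.05 in the higher direction, beside 1.37% of all genes. Ankrd23 differed by -0.06 ± 0.16 in the LV, Tceal7 by -0.04 ± 0.19 and Acta1 by -0.24 ± 0.25. In Sham-H the LV had on average 54.0 CPM of Ankrd23, above the highest RV value of 35.6 CPM, with LV and RV levels scaled apart. In PAB-H the LV averaged 51.8 CPM, and the RV values lay on both sides of it. In animal 22, whose RV minus LV difference was reversed, the library labelled RV had 62.9 CPM of Ankrd23 and the one labelled LV 33.5 CPM. The interaction of banding with chamber gave 0 genes at an adjusted p under 0.05 among 11334, and 7.92% at an unadjusted p under 0.05, 512 with a larger value in the RV (4.52%) and 386 with a smaller one (3.41%). The rule used this contrast and nothing is read from these counts. Col18a1 (-0.29) and Col16a1 (-0.26) had about the same value in the LV as in the RV, and Cadm4 (-0.84 ± 0.25) had a lower value in the LV too.

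The failing RV, which shares no library with the compensated one, had a larger median fold change over the same markers. PAB-F against Sham-RF gave 1 gene at an adjusted p under 0.05 among 11713 (0.00854%), Usp40, and 8.93% at an unadjusted p under 0.05, 507 higher (4.33%) and 539 lower (4.6%). Of the 20 markers, 19 were higher with a median of 1.28, and 13 had an unadjusted p under 0.05, beside 4.33% of all genes that were higher. The list was chosen with earlier results of these data known, so its counts are no independent evidence at this stage either. Ankrd23 had 93.4, 652.3 and 343.6 CPM in the 3 PAB-F animals and 35.4 and 24.4 CPM in Sham-RF, at 3.61 ± 1.16, next to 1.85 ± 0.55 in the compensated stage. Acta1 was 2.26 ± 0.88, Tceal7 3.24 ± 1.21, Mybpc2 1.98 ± 0.63, Thbs4 4.07 ± 1.30, Rcan1 1.34 ± 0.46, Maoa 2.2 ± 0.79 and Steap2 1.09 ± 0.30. For 3 of the 20 markers the difference between stages had an unadjusted p under 0.05 in edgeR's test, beside 2.1% of all genes. No gene passed the adjusted threshold for that difference. The PAB-H replicates 4 and 5 (117.2 and 215.3 CPM of Ankrd23) thus lay within the range of the failing animals, and replicate 5 had 4465.4 CPM of Acta1 next to 1647.9 to 4454.7 CPM in PAB-F. Across the 11713 genes of that fit the fold changes of both stages had a Pearson's r of 0.46 and a Spearman's rho of 0.56, and 71.6% had the same sign. This correlation is across genes, which are not independent replicates.

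**Figure D5:**
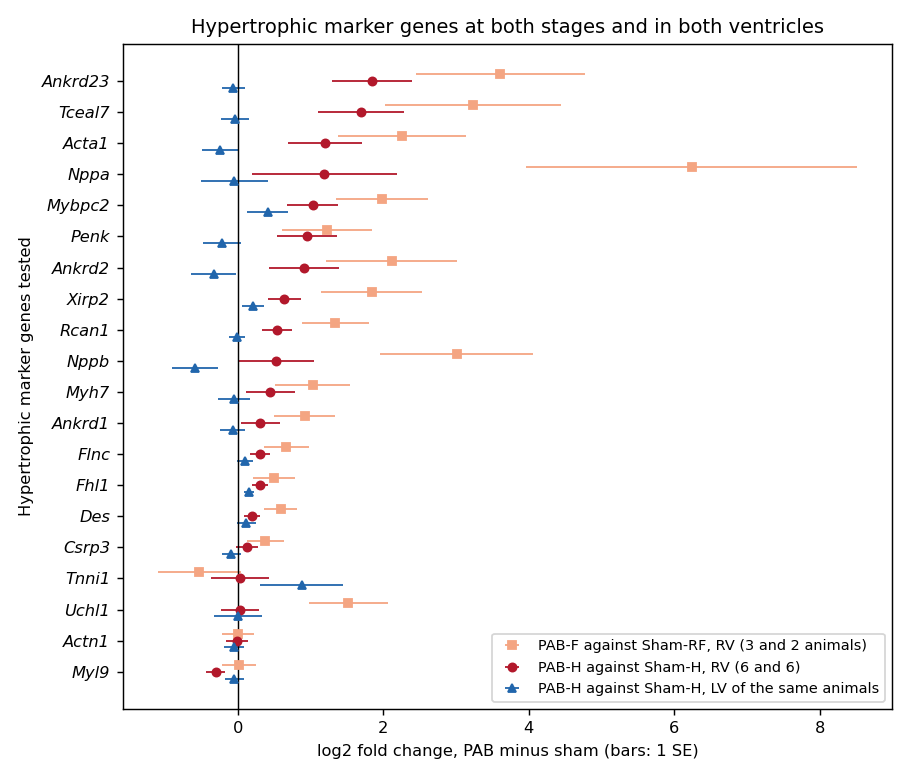
log2 fold change of each of the 20 hypertrophic marker genes (x axis, banded minus sham, bars 1 SE; genes on the y axis) in the compensated RV (6 animals a group), in the LV of the same animals and in the failing RV (3 PAB-F, 2 Sham-RF). In the compensated RV 18 genes lie above 0, in the LV 7 and in the failing RV 19.

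The difference between stages, tested as an interaction in 30 RV libraries, gave 0 genes at an adjusted p under 0.05 in edgeR and 246 (2.1%) at an unadjusted p under 0.05, 99 with a larger value in the failing stage (0.845%) and 147 with a smaller one (1.26%). Nppa differed most among the natriuretic peptides, with 6.24 ± 2.28 in the failing stage and an interaction of 5.06 ± 2.30, whose adjusted p was 1 in edgeR's test. One of the PAB-F libraries also had a high level of the atrial marker Myl7 (1027.6 CPM). Usp40, a deubiquitinase, had 24.4 to 26.6 CPM in PAB-F and 37.4 and 43.8 CPM in Sham-RF (-0.67 ± 0.11), while it ranged from 24.5 to 32.8 CPM in PAB-H and from 27.2 to 31.9 CPM in Sham-H. Its interaction of -0.62 ± 0.13 had an adjusted p of 0.649 in edgeR's test. Tbx21 had values below those of shams in both stages, -0.61 ± 0.18 and -1.28 ± 0.39.

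Set against the RV of AOB-H, where the LV carried the load and animal 12 was left out, the loaded RV gave 0 genes at an adjusted p under 0.05 among 11125 in edgeR's test and 177 (1.59%) at an unadjusted p under 0.05, 94 higher in PAB-H (0.845%) and 83 lower (0.746%). The fold changes, PAB-H minus AOB-H, were 0.54 ± 0.62 for Ankrd23, 0.53 ± 0.62 for Tceal7, 0.92 ± 0.48 for Acta1, 0.83 ± 0.56 for Thbs4 and 0.67 ± 0.98 for Nppa. In AOB-H, Ankrd23 ranged from 29.2 to 149.0 CPM, scaled apart from PAB-H and Sham-H as said above. All 6 AOB-H animals were above the Sham-H median of 18.6 CPM and 1 was above 5 of the 6 PAB-H animals. The genes of lowest unadjusted p were Mastl, Ube2c and Prc1. Mastl, a mitotic kinase, differed by 1.11 ± 0.22, Ube2c, the conjugating enzyme of the anaphase-promoting complex, by 1.06 ± 0.22 and Prc1, a protein of the central spindle, by 0.72 ± 0.15, all at an adjusted p of 1 in edgeR's test. Mastl averaged 0.469 CPM in AOB-H and Prc1 5.04 CPM.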

How the data were processed

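Polyadenylated RNA of whole heart tissue was sequenced as 75-bp single-end reads. The authors used nf-core/RNA-seq, with trimming by Trim Galore and alignment by STAR to Rnor6.0 (UCSC annotation), and counted reads per gene with featureCounts, multiple overlaps disabled. The strand setting is not given in the sources used here. The deposited table of 17337 genes holds whole-number counts, which alone entered the tests. The normalized counts deposited beside them, a linear signal, and the deposited FPKM were not tested. In the 12 libraries 3135 genes had no count, and 0 pairs of libraries were identical. Labels conflict on the tissue field of RV samples (titles were followed) and on age at surgery.

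Counts were tested in edgeR 4.0.16 (R 4.3.3) with TMM, filterByExpr and Benjamini-Hochberg adjustment. DESeq2 1.42.0 and voom (limma 3.58.1) were alternatives. Scripts were tested on simulated data. The stage fit held 30 RV libraries of 7 conditions, the chamber fit had animal as a block. Replicate numbers go with library series, and the deviations of same-numbered PAB-H and Sham-H animals correlated in all 6 pairs (0.178 to 0.663). Only 1 of 6 correlated best with its own number. Same-numbered animals share a series, so these correlations do not show a pairing beyond the series. The replicate number was used as a block in an alternative fit only. With that block 1076 genes had an unadjusted p under 0.05, in place of 302.

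Members and gene lists were chosen with earlier results of these data known. Named genes are 12 listed markers, the 8 of lowest p per direction in both fits, the 3 of lowest p per list and per difference, at 1 CPM or more where taken from all genes. Not all of them are described, and some are not reported here.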

Additional observations from a re-analysis of the deposited data

Results flagged for a closer look

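Within the groups of 6 RV libraries, 16 of 188 sets of values of the named genes had 1 library far from the other 5, where chance gives about 1 in 20, or 9.4. Of these, 5 were from PAB-H replicate 1, which carried atrial markers. It was highest in Nppa (3715.9 CPM, next 1154.1), S100b (5.53, next 3.51), Pgf (6.57, next 3.12) and Myl9 (87.1, next 66.8) and lowest in Jph2, a junctional protein of the ventricular myocyte's dyad (95.5, next 235.1). Sham-H replicate 7, with the other atrial marker reads, was highest in Nppa (1899.9, next 445.0) and Fmod (19.8, next 9.67).

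Sham-H replicate 3 was highest in the smooth muscle genes Tagln (155.0 CPM, next 78.8), Cnn1 (12.1, next 3.80) and Acta2 (143.2, next 79.0). Sham-H replicate 1 was highest in Ankrd23 (35.6, next 21.6) and Tceal7 (14.7, next 6.25), and Sham-H replicate 2 in Tbx21 (4.99, next 4.19). PAB-H replicate 5 was highest in Spp1 (46.3, next 17.7), and PAB-H replicate 3 in Pfkp (25.6, next 22.8) and Klhl22 (53.8, next 48.8).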

How the results depend on the processing

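Counts are genes at an unadjusted p under 0.05 unless said otherwise, and the cause of each shift was not tested. PAB-H against Sham-H (302) gave 1075 with library series, 1076 with the replicate block (931 in DESeq2, 2 of them past the adjusted threshold), 188 with all 14 libraries, 1297 with voom, 894 within series 2, 948 without both atrial-marker libraries and 1655 with animal 22 exchanged for animal 2 as well. With series in the model (1075) it gave 450 with all 14 libraries, 469 in the 30-library fit, 458 with animal 22 exchanged and 1631 without the atrial-marker libraries, where DESeq2 called 80 genes at an adjusted p under 0.05 and edgeR 0. The stage interaction (246) gave 384 with series and 396 with animal 22 exchanged, where 1 gene passed the adjusted threshold (Usp40, adjusted p = 0.0381 in edgeR). The chamber interaction gave 215 with all 14 animals, 158 without the animal block and 353 with animal 22 exchanged. PAB-H against AOB-H (177) gave 280 without a filter, 403 with series, 593 with the replicate block and 70 with all 14 libraries.

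Leaving out 1 library at a time gave 145 (PAB-H replicate 4) to 919 (PAB-H replicate 1), and 668 without Sham-H replicate 5. With series it gave 481 (PAB-H replicate 4) to 1838 (Sham-H replicate 5), and 1743 without PAB-H replicate 1. The stage interaction gave 137 to 517, the chamber interaction 541 to 1336 and PAB-H against AOB-H 121 to 308, and the adjusted count was 0 in all of these. Of 94 named genes, none reversed when 1 library was left out. Usp40 changed sign with all 14 libraries (0.01), with animal 22 exchanged (0.01) and with the atrial-marker libraries also left out (0.03). Within series 1 alone Myh7 (-0.22), Ankrd1 (-0.19), Postn (-0.31), Spp1 (-0.99), Fmod (0.06), Cnn1 (0.06), Pgf (0.06), Mki67 (-0.12), Prc1 (-0.13), Lyve1 (0.26) and Dcn (0.15) changed sign. Series 3 has 1 animal a group and allows no test.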

Other observations

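Without both libraries with atrial markers and with the library series in the model, an alternative chosen after seeing the data, DESeq2 called 80 genes, 41 higher and 39 lower in PAB-H, while edgeR called 0. All 80 had the same sign in the fit of the 12 libraries with series. The libraries behind the 80 calls are among those 12 and the model terms are the same. The shared sign was thus nearly fixed in advance and is no support for the calls. Ankrd23 (2.32, adjusted p = 0.0448 in DESeq2) and Thbs4 (1.88, adjusted p = 0.0166 in DESeq2) were among the higher ones. Among the lower ones were Plekhb1 (-1.07, adjusted p = 0.00044 in DESeq2) and Scn7a, a sodium channel of glia (-0.84, adjusted p = 7.58e-05 in DESeq2). With the replicate block, DESeq2 called Pdlim5, a Z-disc protein (0.44, adjusted p = 0.00607), and Dnaja4, a co-chaperone (0.45, adjusted p = 0.0291), both higher.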
